A study of Mus musculus with 3 samples.

Results

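The genes described here take glucose into the cell, break it down to pyruvate, and exchange lactate. They are 10 named members of 27998 genes in the deposited matrix: the glucose transporters Slc2a1 and Slc2a3, the hexokinases Hk1 and Hk2, the phosphofructokinase Pfkp, the phosphoglycerate kinase Pgk1, the lactate dehydrogenase subunits Ldha and Ldhb, and the monocarboxylate transporters Slc16a1 and Slc16a3. The members are taken by their symbols, with no threshold on a measured value, and all 10 had a row in the matrix.

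Glycolysis splits glucose into pyruvate, which either enters mitochondria or is reduced to lactate by lactate dehydrogenase. That enzyme is built from A and B subunits, encoded by Ldha and Ldhb, and isozymes rich in the A subunit are known for favouring lactate formation, those rich in the B subunit for favouring its oxidation. In the testis, Sertoli cells are known to take up glucose and to release lactate through monocarboxylate transporters, and germ cells take that lactate up as a fuel.

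The study concerns what the activity of CDK2, a cyclin-dependent kinase, does for the fate of germ cells in males. Testes came from Cdk2-Y15S males (YS/YS), Cdk2-HET males (+/YS) and Cdk2-WT males (+/+), all bred from heterozygous parents on one genetic background that mixes B6(Cg)-Tyrc-2J/J and FVB/NJ, untreated, at postnatal day 3, with 3.5 days post partum in the dissection protocol. Y15S replaces a tyrosine whose phosphorylation inhibits the kinase with serine. Each genotype was 1 library of a 10x Genomics 3' version 2 single-cell assay, and the labels do not say how many animals gave each suspension. The allele is carried by every cell, so germ cells and supporting cells are mutant alike.

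The libraries held 4403 cells for Cdk2-Y15S, 4958 for Cdk2-HET and 5061 for Cdk2-WT, with 28651691, 32025077 and 30624473 unique molecular identifiers (UMIs, each standing for 1 captured RNA molecule). The authors assigned 141 germ cells to clusters A to E, 72 of Cdk2-Y15S and 69 of Cdk2-WT, with none of Cdk2-HET. Cluster A held only Cdk2-WT cells and clusters D and E only Cdk2-Y15S cells, so genotype and cluster cannot be told apart over most of the germ cells. Sertoli cells, the nurse cells of the tubule, were picked by at least 3 UMIs of Amh, Sox9, Cldn11 and Inha with at most 2 of Col1a1, Col1a2, Col3a1 and Dcn. There were 1510 in Cdk2-Y15S, 2110 in Cdk2-HET and 2378 in Cdk2-WT. Cells with at least 5 of those collagen UMIs were called peritubular myoid where Acta2, Myh11 and Tagln reached 8 UMIs (724, 834 and 653 cells in Cdk2-Y15S, Cdk2-HET and Cdk2-WT) and stromal otherwise (1681, 1595 and 1497 cells).

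The classes were checked against summed marker genes, most of them outside the gates. The sums of the somatic classes include the gate genes, so a high sum in the gated class is in part set by the gate. No sum without the gate genes was made. Stromal and myoid cells were parted less cleanly than the others. The 10 germ cell markers summed to 2546 CPM (the UMIs of a gene scaled to a common total of all UMIs in the class, as CPM is usually defined) in Cdk2-Y15S germ cells and 2730.2 CPM in Cdk2-WT germ cells, against 8.62 to 65.4 CPM in the somatic sums. The 13 Sertoli markers, 4 of them gate genes, summed to between 10428 and 11383 CPM in Sertoli cells and to between 381 and 603 CPM in stromal and myoid cells. The 8 myoid markers, gate genes among them, summed to between 6503 and 8201 CPM in myoid cells and 1235 and 1419 CPM in stromal cells. The 12 stromal markers, gate genes among them, summed to between 8454 and 12258 CPM in stromal cells and 3834 and 4925 CPM in myoid cells. Fetal Leydig markers in stromal cells summed to between 278 and 422 CPM. Stromal markers were not at 0 in germ cells, with 471 CPM in Cdk2-Y15S and 243 CPM in Cdk2-WT, and cluster C had the highest level of them, with 2218 CPM in its 8 Cdk2-Y15S cells and 1362 CPM in its 5 Cdk2-WT cells. Sertoli markers in germ cells summed to 435 CPM in Cdk2-Y15S and 411 CPM in Cdk2-WT, and to 856 CPM in cluster B of Cdk2-Y15S. Between 55 and 60 barcodes of each library also occurred in another library. The 3' tags do not read the changed codon, so Cdk2 UMIs check no genotype label. Levels below are CPM of UMIs summed over a class in 1 library, with exact 95% Poisson intervals that, like all intervals here, cover counting error only. A 3' UMI count is not a level per gene length, so levels are compared between cells and not between genes.

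The 4 promoters below belong to the members on which the results turn: the lactate dehydrogenase pair, which went separate ways in stromal and myoid cells, and the genes with the highest and the lowest fold in germ over Sertoli cells, Pfkp and Slc16a3. Each is the RefSeq sequence (GRCm38.p6) from 250 bases before to 50 bases after the first listed transcription start, read 5' to 3' on the gene's strand. Capitals mark ACGTG or its reverse complement CACGT, the core that hypoxia-inducible factors and, as part of CACGTG, E-box proteins are known to bind. The 2 orientations overlap where they form CACGTG.
Ldha, chr7:46845554-46845853, plus strand: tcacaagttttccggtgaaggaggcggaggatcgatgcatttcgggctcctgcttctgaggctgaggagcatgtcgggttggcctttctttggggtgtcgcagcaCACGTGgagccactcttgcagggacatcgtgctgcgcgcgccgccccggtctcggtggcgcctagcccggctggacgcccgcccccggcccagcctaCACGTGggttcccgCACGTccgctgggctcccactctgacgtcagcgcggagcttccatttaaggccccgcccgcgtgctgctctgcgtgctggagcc
Ldhb, chr6:142507908-142508207, minus strand: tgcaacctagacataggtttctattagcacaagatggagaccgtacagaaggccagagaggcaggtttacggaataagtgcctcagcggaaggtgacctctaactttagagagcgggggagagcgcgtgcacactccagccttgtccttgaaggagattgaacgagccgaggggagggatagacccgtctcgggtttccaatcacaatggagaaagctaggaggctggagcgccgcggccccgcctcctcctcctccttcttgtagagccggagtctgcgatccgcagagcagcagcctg
Pfkp, chr13:6648722-6649021, minus strand: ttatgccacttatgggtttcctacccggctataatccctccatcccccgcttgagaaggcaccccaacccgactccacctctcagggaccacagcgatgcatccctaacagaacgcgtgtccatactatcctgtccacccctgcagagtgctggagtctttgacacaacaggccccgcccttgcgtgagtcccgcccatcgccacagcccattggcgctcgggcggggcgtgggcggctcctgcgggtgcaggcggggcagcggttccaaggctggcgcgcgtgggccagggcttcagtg
Slc16a3, chr11:120948817-120949116, plus strand: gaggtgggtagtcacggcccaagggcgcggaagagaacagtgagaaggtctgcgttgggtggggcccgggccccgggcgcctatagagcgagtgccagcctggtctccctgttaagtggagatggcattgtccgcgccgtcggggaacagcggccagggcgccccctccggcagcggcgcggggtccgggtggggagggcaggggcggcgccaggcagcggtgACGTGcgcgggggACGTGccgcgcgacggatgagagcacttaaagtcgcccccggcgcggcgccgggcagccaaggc

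Ldha held 5 matches over both strands, Slc16a3 held 2, and Ldhb and Pfkp held 0 in these windows. Of all 32851 listed promoters of this length, 6447 (19.6%) held the motif at least once, and 60 (0.183%) held 5 matches or more. Promoters were listed for 9 of the 10 members, and the first listed window of 6 of those held the motif: besides Ldha and Slc16a3 these were Slc16a1 with 3 matches, Hk2 and Pgk1 with 2 each, and Slc2a1 with 1. A second listed start of Ldha held 0 and a second start of Hk1 held 2. A match describes letters and is no measured binding site.

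Among the cell classes, germ cells stood apart by high Pfkp, Slc2a3 and Slc16a1 and by low Slc16a3, Ldhb, Ldha and Pgk1. Sertoli cells had the highest Ldhb. Classes were compared with edgeR's quasi-likelihood test on the sums, with library as a block and Benjamini-Hochberg adjustment over all 14501 genes tested. A gene was called at an adjusted p under 0.05. The block takes out the average of each library, so these p-values set a class difference against how far class differences vary between libraries. The 3 libraries differ in genotype and there is 1 of each, so part of that spread is genotype and part may be technical. Germ cells lack Cdk2-HET, and 1 fit with 1 spread covered all classes, so the germ p-values also draw on the spread of the somatic classes. Between germ and Sertoli cells, 30.6% of all genes were called higher and 32.7% lower, and of the 10 members 3 were higher, 4 lower and 3 not called, a share near that background. Between germ and stromal cells 4 members were higher and 4 lower, where 31.1% of all genes were higher and 35.6% lower. The median log2 fold of the members was -0.17 in germ over Sertoli cells, against -0.05 for all genes, and -0.37 in germ over stromal cells, against -0.12.

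**Figure D1:**
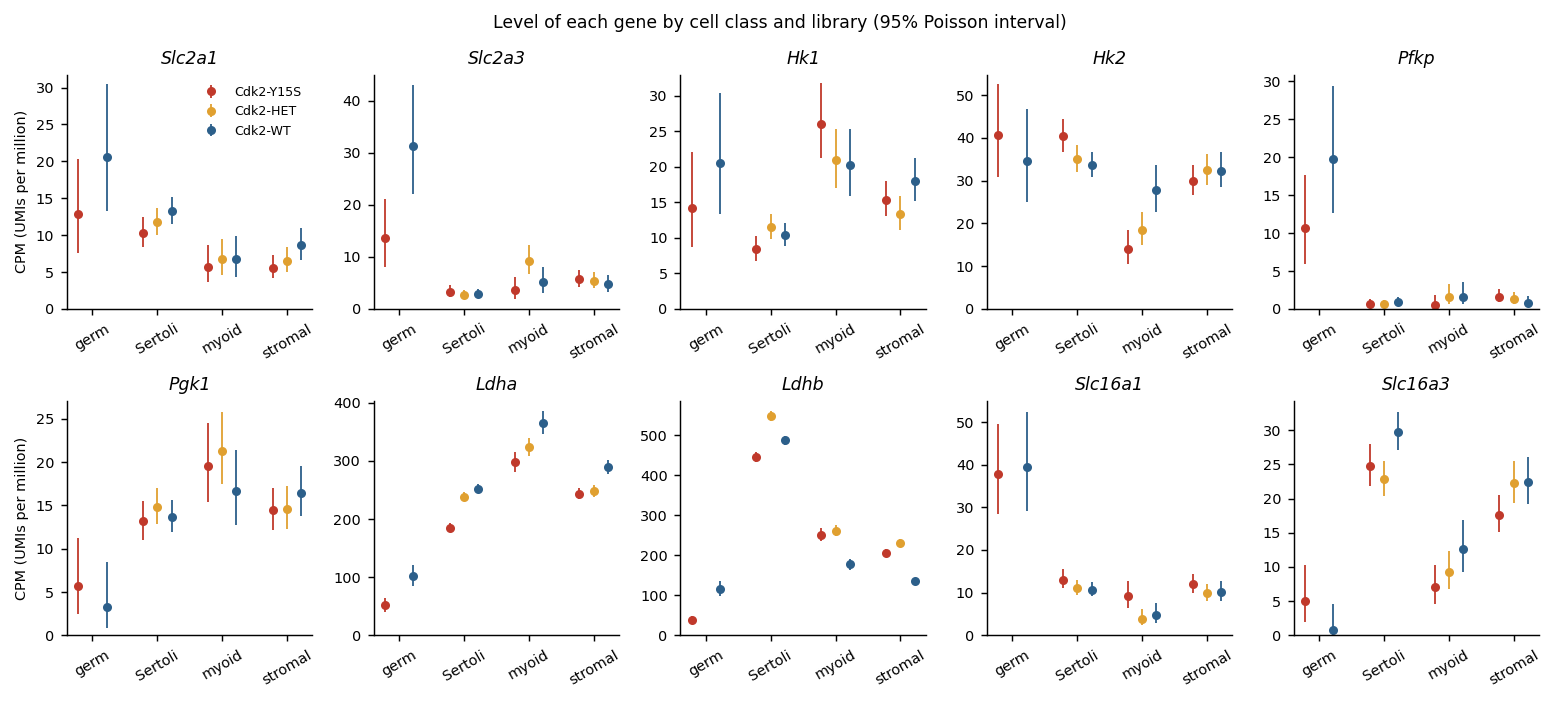
Level of each member (CPM, linear axis) in germ, Sertoli, myoid and stromal cells, 1 point per library, with exact 95% Poisson intervals that cover counting error. Pfkp and Slc2a3 are highest in the germ sums (10.7 and 13.6 CPM in Cdk2-Y15S germ cells) and Ldhb is highest in the Sertoli sums (447 to 548 CPM).

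Slc2a3 encodes a high-affinity glucose transporter, best known from neurons, and lies on chromosome 6 (chr6:122727809-122801640, minus strand, GRCm38). Its level was 13.6 CPM in Cdk2-Y15S and 31.3 CPM in Cdk2-WT germ cells. In Sertoli cells it was 3.34 CPM in Cdk2-Y15S, 2.68 in Cdk2-HET and 2.93 in Cdk2-WT, and in stromal cells 5.71, 5.36 and 4.77 CPM in the same order. Myoid cells had 3.65, 9.23 and 5.12 CPM in Cdk2-Y15S, Cdk2-HET and Cdk2-WT. Both germ sums lay above every somatic sum, but the counting interval of Cdk2-Y15S germ cells (8.16 to 21.2 CPM) holds the Cdk2-HET myoid level. The fold was 2.51 on the log2 scale in germ over Sertoli cells (SE 0.38, edgeR adjusted p = 5.13e-05) and 1.55 over stromal cells (SE 0.37, edgeR adjusted p = 0.00193), a call that was lost without the Cdk2-WT library (0.90, edgeR adjusted p = 0.115). Sertoli cells were below stromal cells by -0.96 (SE 0.29, edgeR adjusted p = 0.00993), but not past the threshold without Cdk2-HET (edgeR adjusted p = 0.0559).

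Slc2a1 encodes the widely used basal glucose transporter (chr4:119108711-119137983, plus strand). It had 12.8 CPM in Cdk2-Y15S and 20.6 CPM in Cdk2-WT germ cells, 10.3, 11.7 and 13.2 CPM in Sertoli cells of Cdk2-Y15S, Cdk2-HET and Cdk2-WT, and 5.61, 6.51 and 8.63 CPM in stromal cells of those libraries. Germ and Sertoli sums overlapped, and the log2 fold between them was 0.05 (edgeR adjusted p = 0.871). Sertoli cells had more than stromal cells, by 0.65 (SE 0.15, edgeR adjusted p = 0.00174). The germ excess over stromal cells, 0.70 (SE 0.24, edgeR adjusted p = 0.0202), was lost when any 1 library was left out (0.69 to 0.72, edgeR adjusted p between 0.0556 and 0.124).

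The hexokinases, which trap glucose as glucose 6-phosphate, were not called in germ over Sertoli or germ over stromal cells. Hk2, the inducible form (chr6:82725025-82774454, minus strand), had 40.7 and 34.6 CPM in Cdk2-Y15S and Cdk2-WT germ cells and between 33.7 and 40.4 CPM in Sertoli cells. Its germ over Sertoli fold was -0.39 (edgeR adjusted p = 0.165). Hk1, the constitutive form (chr10:62268855-62379908, minus strand), had 14.3 and 20.6 CPM in Cdk2-Y15S and Cdk2-WT germ cells, both above every Sertoli sum. In soma it was lowest in Sertoli cells (8.39, 11.5 and 10.4 CPM in Cdk2-Y15S, Cdk2-HET and Cdk2-WT), and Sertoli cells were below stromal cells by -0.73 (SE 0.17, edgeR adjusted p = 0.0017). An antisense transcript, Hk1os, is annotated at Hk1, and the sources used here do not give the strand setting of the counting.

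Pfkp encodes the platelet-type phosphofructokinase, a form of the enzyme that commits sugar to glycolysis (chr13:6579768-6648777, minus strand). It had the highest fold of the members in germ cells. There were 10.7 CPM in Cdk2-Y15S and 19.8 CPM in Cdk2-WT germ cells, against 0.668, 0.635 and 0.913 CPM in Sertoli cells of Cdk2-Y15S, Cdk2-HET and Cdk2-WT. The log2 fold was 3.88 in germ over Sertoli cells (SE 0.48, edgeR adjusted p = 8.42e-06) and 3.00 over stromal cells (SE 0.47, edgeR adjusted p = 7.28e-05). A Pfkp UMI was seen in 19.4% of Cdk2-Y15S and 30.4% of Cdk2-WT germ cells, and in 0.464%, 0.427% and 0.547% of Sertoli cells of Cdk2-Y15S, Cdk2-HET and Cdk2-WT. Germ cells were read more deeply, with a median of 18462 UMIs in Cdk2-Y15S and 16653 in Cdk2-WT against 6160 to 6298 UMIs in Sertoli cells. With each cell thinned to 2000 UMIs, 1.39% of Cdk2-Y15S and 5.80% of Cdk2-WT germ cells held a Pfkp UMI, against 0.127% to 0.265% of Sertoli cells.

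Pgk1 (chrX:106187100-106203699, plus strand), which makes the first ATP of the pathway, had 8 UMIs in Cdk2-Y15S and 4 UMIs in Cdk2-WT germ cells (5.71 and 3.30 CPM), against 13.2 to 14.8 CPM in Sertoli cells. It was lower in germ cells than in Sertoli cells by -2.0 (SE 0.33, edgeR adjusted p = 0.000124) and than in stromal cells by -2.24 (SE 0.33, edgeR adjusted p = 3.45e-05). Pgk1 and Ldha, like Gapdh and Eno1, have near-identical copies in the genome, and the sources used here do not say how reads shared with these were counted, so their levels are uncertain.

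Lactate dehydrogenase differed between classes by subunit. Ldhb (chr6:142490249-142507957, minus strand) had 447, 548 and 488 CPM in Sertoli cells of Cdk2-Y15S, Cdk2-HET and Cdk2-WT, 206, 231 and 136 CPM in stromal cells, and 37.1 CPM in Cdk2-Y15S and 116 CPM in Cdk2-WT germ cells. The sums of the 3 classes did not overlap. Germ cells were lower than Sertoli cells by -3.06 on the log2 scale (SE 0.33, edgeR adjusted p = 1.89e-06), and Sertoli cells higher than stromal cells by 1.26 (SE 0.23, edgeR adjusted p = 0.000233). Ldha (chr7:46841475-46855627, plus strand) had 185, 238 and 252 CPM in Sertoli cells, 298, 324 and 366 CPM in myoid cells, and 244, 248 and 290 CPM in stromal cells of Cdk2-Y15S, Cdk2-HET and Cdk2-WT. In germ cells it had 51.4 CPM in Cdk2-Y15S and 101 CPM in Cdk2-WT. Germ cells were again lowest, by -2.04 against Sertoli cells (SE 0.16, edgeR adjusted p = 9.1e-08) and -2.38 against stromal cells (SE 0.16, edgeR adjusted p = 1.58e-08). The smaller Ldha difference of Sertoli from stromal cells, -0.34 (SE 0.11, edgeR adjusted p = 0.0152), was lost without Cdk2-HET (edgeR adjusted p = 0.0539).

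The monocarboxylate transporters parted by class in opposite directions. Slc16a1 encodes MCT1, which is known for lactate uptake (chr3:104638668-104658462, plus strand). It had 37.8 and 39.6 CPM in Cdk2-Y15S and Cdk2-WT germ cells, against 13.1, 11.1 and 10.7 CPM in Sertoli cells and 12.03, 9.87 and 10.2 CPM in stromal cells of Cdk2-Y15S, Cdk2-HET and Cdk2-WT. Germ cells exceeded both, each by 1.22 (SE 0.22 and 0.23, edgeR adjusted p = 0.000285 and 0.000308). Slc16a3 encodes MCT4, which is known for lactate export from glycolytic cells (chr11:120948480-120960868, plus strand). It had 7 UMIs in Cdk2-Y15S and 1 UMI in Cdk2-WT germ cells (4.995 and 0.824 CPM), against 24.8, 22.8 and 29.8 CPM in Sertoli cells of Cdk2-Y15S, Cdk2-HET and Cdk2-WT. The fold in germ over Sertoli cells was -3.51 (SE 0.42, edgeR adjusted p = 5.49e-06), the lowest of the members.

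**Figure D2:**
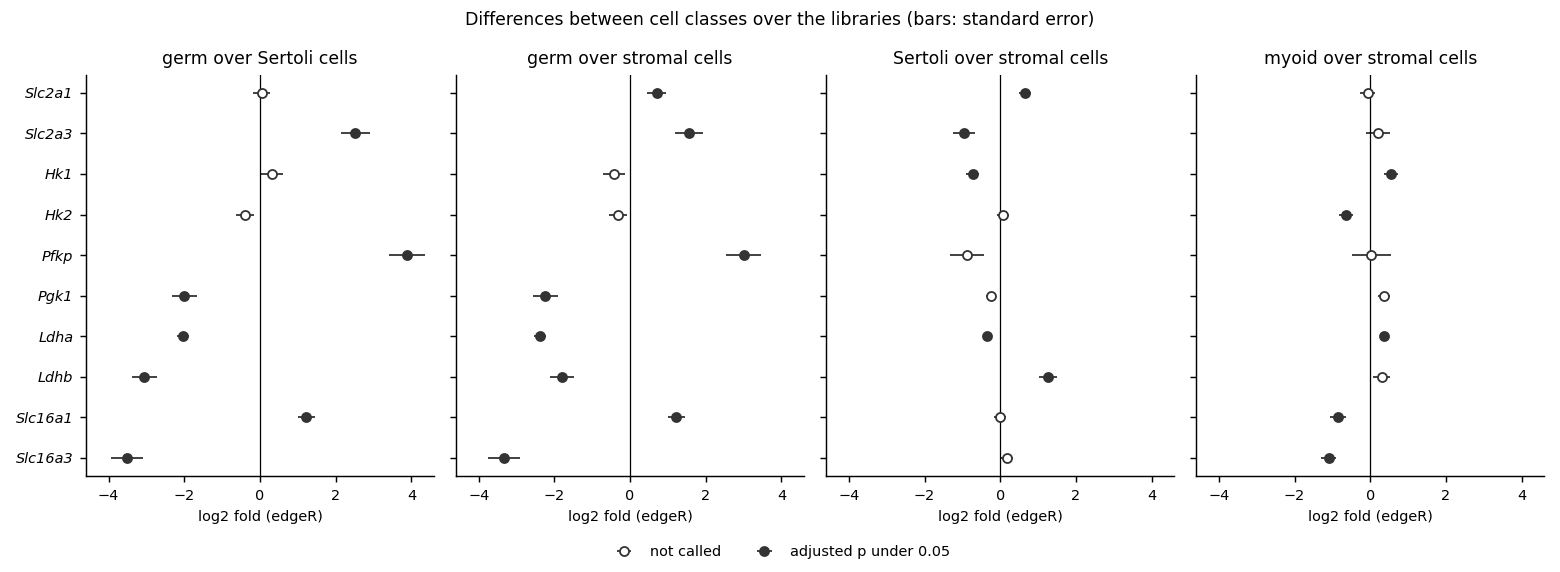
Log2 fold of each member between cell classes (horizontal axis) with its standard error, from edgeR on the summed UMIs of 3 libraries (2 for germ cells). Pfkp stands highest (3.88) and Slc16a3 lowest (-3.51) in germ over Sertoli cells.

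Myoid and stromal cells were closer to each other: 2 members were higher in myoid cells and 3 lower, where 9.25% of all genes were higher and 11.8% lower. Hk1 was higher by 0.55 (SE 0.18, edgeR adjusted p = 0.0402) and Ldha by 0.36 (SE 0.11, edgeR adjusted p = 0.0361). Slc16a3 was lower by -1.10 (SE 0.20, edgeR adjusted p = 0.00128), Slc16a1 by -0.85 (SE 0.22, edgeR adjusted p = 0.0124) and Hk2 by -0.64 (SE 0.18, edgeR adjusted p = 0.0211). None of these 5 calls held without Cdk2-HET (edgeR adjusted p between 0.0636 and 0.298).

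Of 22 other enzymes of the glycolytic pathway and its control, 17 could be tested. In Sertoli over stromal cells 10 were higher and 6 lower, with a median of 0.70, where 31.1% of all genes were higher and 32.9% lower and the members' median was -0.12. The liver-type phosphofructokinase Pfkl (1.45), the aldolase Aldoa (1.16), the mutase Pgam1 (1.19), the enolase Eno1 (1.46) and Pfkfb3 (1.88), which makes the phosphofructokinase activator, were higher in Sertoli cells, and the isomerase Tpi1 (-1.27) and the neuronal enolase Eno2 (-5.99) were lower. Eno2 had 0, 0.0706 and 0.0652 CPM in Sertoli cells of Cdk2-Y15S, Cdk2-HET and Cdk2-WT, so the size of its fold is uncertain. In germ over Sertoli cells 4 of the 17 were higher and 10 lower, with a median of -0.92, where 30.6% of all genes were higher and 32.7% lower. Gpi1 (1.41), Aldoc (2.20), Eno3 (1.41) and Pfkfb1 (1.53) were higher, and Pfkl (-3.12), Tpi1 (-2.84) and Aldoa (-1.93) were lower. Pfkp and Pfkl, isoforms of the same enzyme, thus lay on opposite sides of germ against Sertoli cells.

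Of 26 other hexose and monocarboxylate carriers and their chaperones, 16 were tested. In germ over Sertoli cells 4 of them were higher and 6 lower, where 30.6% of all genes were higher and 32.7% lower. Basigin (Bsg), the partner that carries MCT1 and MCT4 to the membrane, was lower in germ cells by -0.66 (edgeR adjusted p = 0.000829). Its CPM was 265 in germ cells and 367 in Sertoli cells of Cdk2-WT, but 350 in germ cells and 341 in Sertoli cells of Cdk2-Y15S. Embigin (Emb), a related partner, was higher by 1.11 (SE 0.24, edgeR adjusted p = 0.000963), and the carriers Slc16a11 (8.34) and Slc16a6 (6.37) were higher still. Of 14 genes of pyruvate entry into mitochondria 13 were tested, with 6 higher and 3 lower in germ over Sertoli cells, beside the same background. Pdk1, which inhibits pyruvate dehydrogenase, was higher (1.36), as were the dehydrogenase subunit Pdha1 (1.20) and the pyruvate carrier subunit Mpc2 (0.92), while its partner Mpc1 was lower (-0.76), with 83.5 CPM in Cdk2-Y15S germ cells but 180 CPM in Cdk2-WT germ cells, the second above the 158 CPM of Cdk2-WT Sertoli cells. Against library totals instead of TMM, which edgeR uses to scale the sums, the median fold of all genes in germ over Sertoli cells lies 0.44 higher. For 19 hypoxia factors and targets, 18 of them tested, 7 were higher and 6 lower in germ over Sertoli cells, near that background of 30.6% and 32.7%.

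In the authors' germ cells, Ldhb, Slc2a3 and Ldha were lower in Cdk2-Y15S than in Cdk2-WT, while the ratios of Hk2 and Slc16a1 lay near 0 with intervals on both sides of it. With 1 library a genotype there is no test and no p-value, and a difference describes these libraries. Genes with at least 20 UMIs over both sums were compared, and called higher or lower at 1.5-fold. Of the 10 members 8 could be compared: 0 were higher and 5 lower, where 13.1% of all 9736 genes compared were higher and 19.7% lower. Their median log2 ratio was -0.77, against -0.05 for all genes.

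Ldhb had 52 UMIs in Cdk2-Y15S germ cells (37.1 CPM, 27.7 to 48.7) against 141 UMIs in Cdk2-WT germ cells (116 CPM, 97.8 to 137), a log2 ratio of -1.64 (95% interval -2.13 to -1.18). Slc2a3 had 19 UMIs in Cdk2-Y15S germ cells (13.6 CPM, 8.16 to 21.2) against 38 UMIs in Cdk2-WT germ cells (31.3 CPM, 22.2 to 43.0), a ratio of -1.19 (-2.08 to -0.38). Ldha had 72 UMIs in Cdk2-Y15S germ cells (51.4 CPM, 40.2 to 64.7) against 123 UMIs in Cdk2-WT germ cells (101 CPM, 84.3 to 121), a ratio of -0.98 (-1.42 to -0.55). For these 3 members the intervals of the 2 libraries did not overlap. Pfkp (10.7 against 19.8 CPM, -0.87, -1.92 to 0.10) and Slc2a1 (12.8 against 20.6 CPM, -0.67, -1.64 to 0.25) were past 1.5-fold in the same direction, with intervals that reached 0. Hk1 had 14.3 CPM in Cdk2-Y15S and 20.6 CPM in Cdk2-WT germ cells (-0.52, -1.45 to 0.38). Hk2 had 40.7 CPM in Cdk2-Y15S and 34.6 CPM in Cdk2-WT germ cells (0.23, -0.37 to 0.84), and Slc16a1 37.8 and 39.6 CPM (-0.07, -0.66 to 0.53).

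The germ sums differ in other ways too, and the part of these in the ratios was not tested. Stromal markers (12 of 12 seen in each) summed to 471 CPM in Cdk2-Y15S and 243 CPM in Cdk2-WT germ cells, and the median mitochondrial share was 10.2% in Cdk2-Y15S and 11.4% in Cdk2-WT. Stromal and Sertoli cells have more Ldhb and Ldha than germ cells. Sertoli markers summed to 435 CPM in Cdk2-Y15S and 411 CPM in Cdk2-WT germ cells. Cluster D of Cdk2-Y15S still had 398 CPM of the stromal markers, against 171 CPM in cluster B of Cdk2-WT. Without cluster C, where their level is highest, the ratios were -1.77 for Ldhb, -1.04 for Slc2a3 and -1.0 for Ldha. Within the clusters that both genotypes share, B and C weighted equally, they were -0.91 for Ldhb, -1.06 for Slc2a3 and -0.61 for Ldha, but 1.48 for Pfkp and 1.84 for Hk2. These last values rest on 14 Cdk2-Y15S and 33 Cdk2-WT cells.

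**Figure D3:**
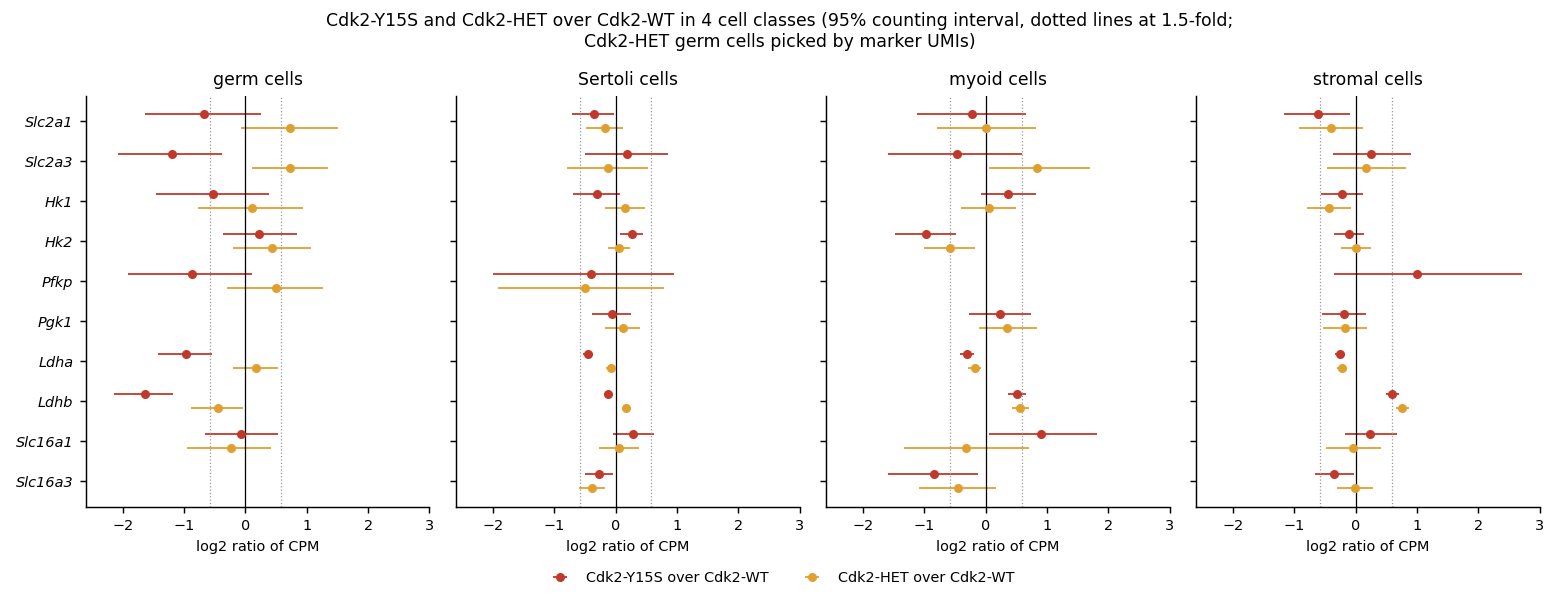
Log2 ratio of each member to Cdk2-WT (horizontal axis) in germ, Sertoli, myoid and stromal cells, with exact 95% intervals for counting error; germ cells of Cdk2-HET are picked by marker UMIs. Ldhb lies at -1.64 in Cdk2-Y15S germ cells and at 0.60 in Cdk2-Y15S stromal cells.

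Across the authors' clusters, the lactate dehydrogenase subunits were lowest in cluster E. Ldhb had 17.4 CPM in cluster E (Cdk2-Y15S), 49.3 CPM in cluster D (Cdk2-Y15S), 65.2 CPM in cluster C of Cdk2-Y15S and 56.8 CPM in that of Cdk2-WT, 33.7 CPM in cluster B of Cdk2-Y15S and 135 CPM in that of Cdk2-WT, and 106 CPM in cluster A (Cdk2-WT). Ldha had 30.95 CPM in cluster E, 54.1 CPM in cluster D, 93.2 CPM in cluster C of Cdk2-Y15S and 184.5 CPM in that of Cdk2-WT, 80.9 CPM in cluster B of Cdk2-Y15S and 85.7 CPM in that of Cdk2-WT, and 106 CPM in cluster A. Ldhb in cluster B of Cdk2-Y15S, from 5 UMIs, was below that in cluster D. Clusters were formed on the RNA of these same cells, so ratios between them are descriptions.

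In cluster E over D, both of Cdk2-Y15S, 4 members could be compared, with 1 higher and 2 lower, where 7.53% of all genes were higher and 10.3% lower. Ldhb was lower (-1.45, -2.76 to -0.40), as was Ldha (-0.78, -1.76 to 0.09). Slc16a1 was higher, with 52.2 CPM in cluster E and 25.45 CPM in cluster D (1.02, 0.09 to 2.03). In cluster D of Cdk2-Y15S over cluster B of Cdk2-WT, 0 of 6 were higher and 4 lower, where 15.1% of all genes were higher and 14.3% lower. Ldhb was at -1.44 (-2.11 to -0.83), Ldha at -0.66 (-1.35 to 0.00), Slc2a1 at -0.90 (-2.31 to 0.35) and Slc16a1 at -0.88 (-1.89 to 0.06). The Ldhb interval alone stayed clear of 0.

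In cluster B over A, both of Cdk2-WT, 2 of 8 members were higher and 3 lower, where 12.4% of all genes were higher and 18.1% lower, and no member's interval was clear of 0. Slc16a1 had 47.4 CPM in cluster B and 26.9 CPM in cluster A (0.80, -0.14 to 1.81). Slc2a3 had 20.1 CPM in cluster B and 40.4 CPM in cluster A (-0.98, -2.19 to 0.07), and Pfkp 12.8 and 28.6 CPM (-1.11, -2.68 to 0.18). Pfkp had 3.87 CPM, from 2 UMIs, in cluster E and 0 UMIs in cluster C of Cdk2-WT, where 3 UMIs would be 42.6 CPM.

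**Figure D4:**
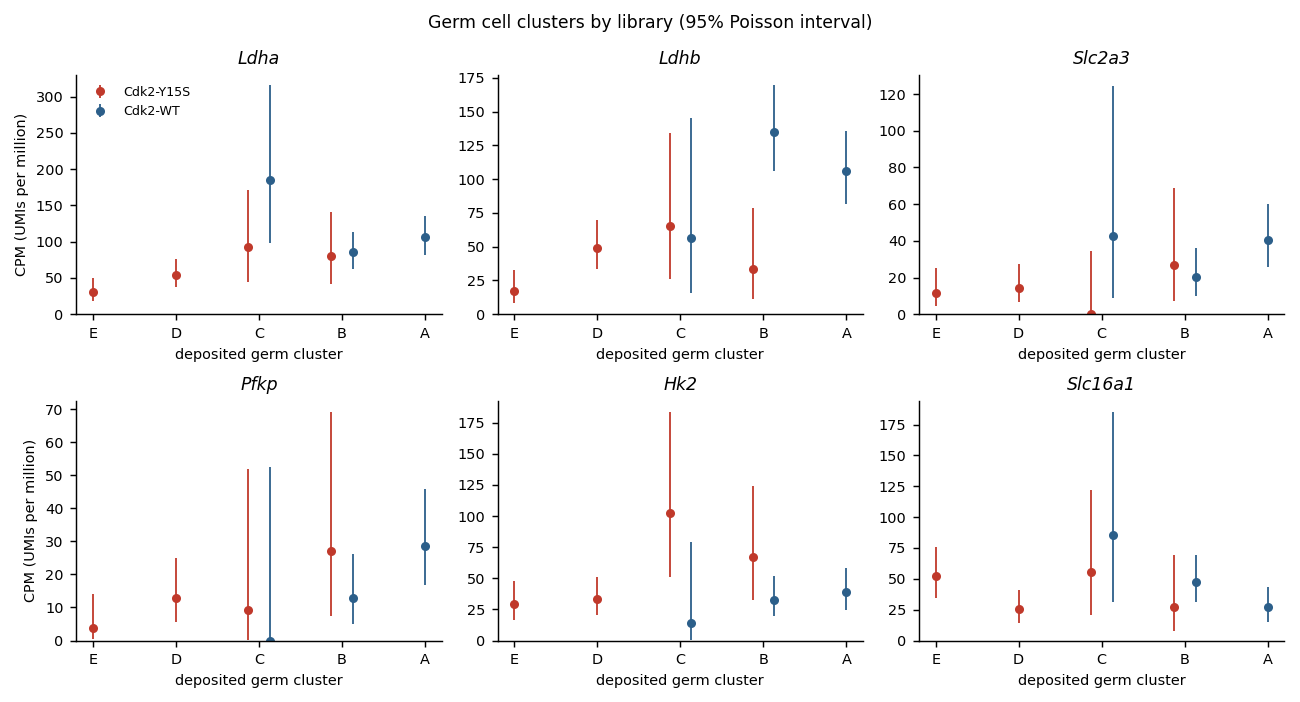
Level (CPM) of 6 members in the authors' germ clusters E, D, C, B and A by genotype, with exact 95% Poisson intervals. Ldhb has 17.4 CPM in cluster E and 135 CPM in cluster B of Cdk2-WT.

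Germ cells of Cdk2-HET are not among the authors' 141, so cells with at least 3 UMIs of Ddx4, Dazl and Mael from at least 2 of these genes were taken in every library, 114 in Cdk2-Y15S, 68 in Cdk2-HET and 123 in Cdk2-WT. Ldha had 48.6 CPM in Cdk2-Y15S, 124 CPM in Cdk2-HET and 110.4 CPM in Cdk2-WT. Ldhb had 43.4, 78.0 and 107 CPM, and Slc2a3 16.8, 51.6 and 31.2 CPM, in the same order. Heterozygous cells were thus above Cdk2-WT cells for Slc2a3 and between the other genotypes for Ldhb. In Cdk2-Y15S over Cdk2-WT 5 of 8 members were lower and 0 higher, where 20.3% of all genes were lower and 13% higher. Of these cells, 42 of Cdk2-Y15S, 68 of Cdk2-HET and 54 of Cdk2-WT are not among the authors' germ cells. In the cells outside the authors' set, Ldhb had 70.1 CPM in Cdk2-Y15S (44.4 to 105) and 73.5 CPM in Cdk2-WT (47.1 to 109), and Slc2a3 had 30.5 CPM in Cdk2-Y15S (14.6 to 56.0) and 30.6 CPM in Cdk2-WT (14.7 to 56.3). For both genes the intervals overlap, from 10 to 24 UMIs a sum, so the differences in Ldhb and Slc2a3 rest on the authors' germ cells. Ldha was again lower, with 36.6 CPM in Cdk2-Y15S (18.9 to 63.9) and 144 CPM in Cdk2-WT (106 to 191). These cells were shallower than the authors', at a median of 6192 UMIs in Cdk2-Y15S and 5298 UMIs in Cdk2-WT, and held stromal markers at 1326 CPM in Cdk2-Y15S and 135 CPM in Cdk2-WT and Sertoli markers at 960.0 CPM in Cdk2-Y15S and 863 CPM in Cdk2-WT; the part of these in the levels was not tested. In Cdk2-HET over Cdk2-WT, over all marker-picked cells, 2 of 8 were higher and 0 lower, where 10.2% of all genes were higher and 6.7% lower. These were Slc2a3 (0.73, 0.11 to 1.35) and Slc2a1 (0.72, -0.08 to 1.51). Ldhb was at -0.45 (-0.89 to -0.04), and at 0.39 in the cells within the limits on genes and mitochondrial share. Stromal markers in these cells summed to 633 CPM in Cdk2-Y15S, 762 CPM in Cdk2-HET and 220 CPM in Cdk2-WT, and their part in the ratios was not tested.

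In the soma, stromal and myoid cells of both mutant genotypes had more Ldhb than those of Cdk2-WT, beside less Ldha. Ldhb had 206 CPM in Cdk2-Y15S, 231 CPM in Cdk2-HET and 136 CPM in Cdk2-WT stromal cells. The log2 ratio to Cdk2-WT was 0.60 for Cdk2-Y15S (0.49 to 0.71) and 0.76 for Cdk2-HET (0.65 to 0.87). In myoid cells it had 252 CPM in Cdk2-Y15S, 261.5 CPM in Cdk2-HET and 177 CPM in Cdk2-WT, with ratios of 0.51 (0.36 to 0.65) and 0.56 (0.42 to 0.70) for Cdk2-Y15S and Cdk2-HET. Both mutant libraries were above Cdk2-WT in both classes, with no overlap of intervals. Sertoli cells, by contrast, lay on both sides of Cdk2-WT, with 447 CPM in Cdk2-Y15S (-0.13, -0.18 to -0.07), 548 CPM in Cdk2-HET (0.17, 0.12 to 0.21) and 488 CPM in Cdk2-WT.

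Sertoli cells hold more Ldhb than stromal cells, and stromal cells held Sertoli markers at 603 CPM in Cdk2-Y15S, 589 CPM in Cdk2-HET and 457 CPM in Cdk2-WT. In stromal cells with 0 UMIs of the 4 Sertoli gate genes the Ldhb ratio was 0.55 for Cdk2-Y15S and 0.75 for Cdk2-HET, and in such myoid cells 0.52 and 0.55. With Scrublet's doublet calls kept, the stromal ratios were 0.45 and 0.64. The Cdk2-Y15S value is under 1.5-fold in both settings, so that call depends on the gate and on the treatment of doublets, while its direction was the same in each. The 12 stromal markers themselves summed to 12258 CPM in Cdk2-Y15S, 10781 CPM in Cdk2-HET and 8454 CPM in Cdk2-WT stromal cells, and the median depth was 5497, 5617 and 4954 UMIs in those cells; the part of this makeup in the Ldhb ratio was not tested. A Ldhb UMI was seen in 60.7% of Cdk2-Y15S, 66.8% of Cdk2-HET and 45.0% of Cdk2-WT stromal cells, and after thinning to 2000 UMIs a cell in 31.7%, 34.4% and 20.8% of those libraries' cells, against 11.1% of Cdk2-Y15S and 29.0% of Cdk2-WT germ cells.

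Ldha went the other way from Ldhb in stromal and myoid cells, while in Cdk2-Y15S Sertoli cells both subunits were lower than in Cdk2-WT. Ldha had 244 CPM in Cdk2-Y15S, 248 CPM in Cdk2-HET and 290 CPM in Cdk2-WT stromal cells, with ratios of -0.25 (-0.34 to -0.17) and -0.23 for Cdk2-Y15S and Cdk2-HET. In myoid cells its ratios were -0.30 (-0.41 to -0.18) and -0.18 (-0.28 to -0.07) in the same order. In Sertoli cells it had 185 CPM in Cdk2-Y15S, 238 CPM in Cdk2-HET and 252 CPM in Cdk2-WT, with ratios of -0.45 (-0.53 to -0.37) and -0.08. All of these were under 1.5-fold. Of the UMIs of both subunits, Ldhb took 45.8% in Cdk2-Y15S (44.3 to 47.3), 48.2% in Cdk2-HET (46.8 to 49.7) and 31.9% in Cdk2-WT stromal cells (30.3 to 33.6). In myoid cells its share was 45.8% (43.7 to 48.0), 44.7% (42.9 to 46.5) and 32.6% (30.6 to 34.7), and in Sertoli cells 70.7% (69.6 to 71.8), 69.7% (68.8 to 70.5) and 65.9% (65.0 to 66.8), in Cdk2-Y15S, Cdk2-HET and Cdk2-WT. In the authors' germ cells it was 41.9% in Cdk2-Y15S (33.1 to 51.1) and 53.4% in Cdk2-WT (47.2 to 59.5). Within a library this share does not depend on the CPM scale, and it was higher in both mutants than in Cdk2-WT in all 3 somatic classes. The intervals are exact (Clopper-Pearson), and those of the authors' germ cells overlap. In the marker-picked germ cells outside the authors' set the order was the opposite, with 65.7% in Cdk2-Y15S (47.8 to 80.9) and 33.8% in Cdk2-WT (23.0 to 46.0), so the share in germ cells has no one direction.

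**Figure D5:**
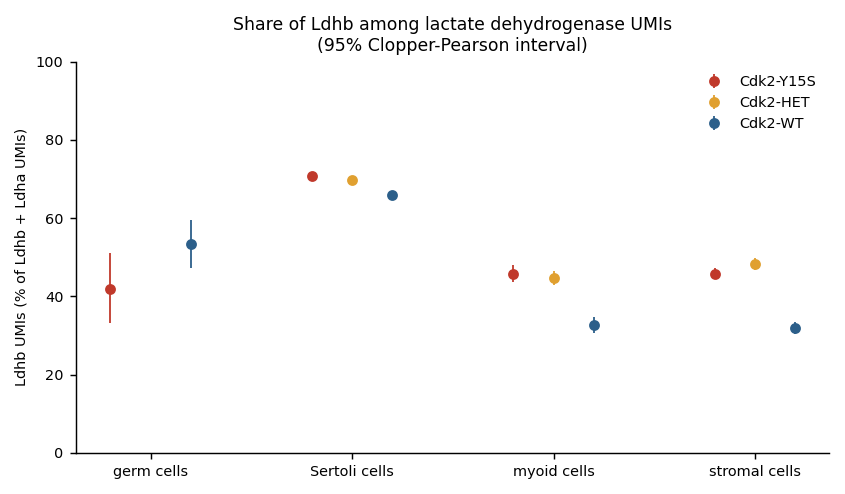
Share of Ldhb in the UMIs of Ldhb and Ldha together (percent) by cell class and library, with exact 95% Clopper-Pearson intervals. In stromal cells it is 45.8% in Cdk2-Y15S and 48.2% in Cdk2-HET, above 31.9% in Cdk2-WT.

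Among the hexokinases, Hk2 differed by genotype in myoid cells. It had 14.1 CPM in Cdk2-Y15S, 18.5 CPM in Cdk2-HET and 27.7 CPM in Cdk2-WT myoid cells, with ratios of -0.97 (-1.48 to -0.49) and -0.59 (-1.01 to -0.17) for Cdk2-Y15S and Cdk2-HET. In the myoid cells with 0 Sertoli gate UMIs they were -0.87 and -0.40. Sertoli cells had 40.4 CPM in Cdk2-Y15S, 35.2 CPM in Cdk2-HET and 33.7 CPM in Cdk2-WT, the opposite order, at 0.26 (0.07 to 0.45) for Cdk2-Y15S. Macrophage markers in the myoid sums were 2.09 CPM in Cdk2-Y15S, 8.82 CPM in Cdk2-HET and 45.2 CPM in Cdk2-WT, and their part in the Hk2 ratio was not tested. The share of Hk2 in the hexokinase pair was 35.1% in Cdk2-Y15S (27.6 to 43.2), 46.9% in Cdk2-HET and 57.9% in Cdk2-WT myoid cells (50.3 to 65.2). Slc2a1 was lower in Cdk2-Y15S stromal cells, at 5.61 CPM, with 6.51 CPM in Cdk2-HET and 8.63 CPM in Cdk2-WT (-0.62, -1.16 to -0.09 for Cdk2-Y15S).

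The lactate carriers differed in myoid cells from few UMIs. Slc16a3 had 27 UMIs in Cdk2-Y15S, 45 in Cdk2-HET and 47 in Cdk2-WT (7.05, 9.23 and 12.7 CPM), a ratio of -0.83 (-1.58 to -0.13) for Cdk2-Y15S. Slc16a1 had 35, 19 and 18 UMIs (9.13, 3.90 and 4.85 CPM), a ratio of 0.89 (0.05 to 1.82) for Cdk2-Y15S. The carrier for export was thus lower and that for uptake higher in Cdk2-Y15S than in Cdk2-WT, by counts of this size. In Sertoli cells Slc16a3 had 24.8 CPM in Cdk2-Y15S, 22.8 CPM in Cdk2-HET and 29.8 CPM in Cdk2-WT, with a ratio of -0.39 (-0.60 to -0.18) for Cdk2-HET and -0.26 for Cdk2-Y15S.

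Counts over the members in the soma rest on 0 to 2 genes in each direction. In Sertoli cells 0 of 10 members passed 1.5-fold in either mutant; for Cdk2-Y15S 9.83% of all genes were higher and 4.57% lower, and for Cdk2-HET 5.25% and 3.42%. In Cdk2-Y15S stromal cells 2 of 10 were higher (Ldhb, and Pfkp with 16 UMIs against 6 in Cdk2-WT) and 1 lower (Slc2a1), where 9.82% of all genes were higher and 4.61% lower. In Cdk2-HET stromal cells 1 of 9 was higher (Ldhb) and 0 lower, where 6.46% were higher and 3.62% lower. In Cdk2-Y15S myoid cells 1 of 9 was higher (Slc16a1) and 2 lower (Hk2 and Slc16a3), where 7.77% were higher and 6.49% lower. In Cdk2-HET myoid cells 1 of 9 was higher (Slc2a3) and 1 lower (Hk2), where 6.44% were higher and 3.83% lower. Both mutant ratios share the Cdk2-WT library, so that 1 library stands under all of them.

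The neighbouring steps differed in both directions in the authors' Cdk2-Y15S germ cells, where, over all genes compared, 13.1% were higher and 19.7% lower. Of the other glycolytic genes 11 of 22 could be compared, with 1 higher and 3 lower and a median of -0.01: Gapdh had 153 CPM in Cdk2-Y15S and 94.0 CPM in Cdk2-WT (0.70, 0.37 to 1.05), Eno1 139 and 94.0 CPM (0.56), Eno3 12.1 and 27.2 CPM (-1.14, -2.10 to -0.28), and Aldoc 15.7 and 26.4 CPM (-0.74, -1.60 to 0.08). Of the carriers 4 of 26 could be compared, with 2 lower: Emb had 54.2 CPM in Cdk2-Y15S and 135 CPM in Cdk2-WT (-1.31, -1.73 to -0.92), Slc16a6 21.4 and 33.8 CPM (-0.65, -1.39 to 0.06), Slc16a11 72.8 and 53.6 CPM (0.44, -0.02 to 0.91), and Bsg 350 and 265 CPM (0.40, 0.19 to 0.61). Embigin was thus lower and basigin slightly higher. Of the pyruvate entry genes 12 of 14 could be compared, with 2 higher and 3 lower. Mpc2 had 607 CPM in Cdk2-Y15S and 344 CPM in Cdk2-WT (0.82, 0.65 to 0.99), and Mpc1, the other subunit of the mitochondrial pyruvate carrier, 83.5 and 180 CPM (-1.10, -1.44 to -0.78). Pdk1 had 134 and 80.8 CPM (0.73, 0.37 to 1.10), and the pyruvate carboxylase Pcx 15.7 and 28.9 CPM (-0.87, -1.72 to -0.07).

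The non-oxidative pentose phosphate enzymes, which share intermediates with glycolysis, also split, beside the same background of 13.1% higher and 19.7% lower. Taldo1 had 220.5 CPM in Cdk2-Y15S and 113 CPM in Cdk2-WT germ cells (0.96, 0.67 to 1.27), and Tkt 47.1 and 167 CPM (-1.82, -2.25 to -1.42). Of the 8 pentose phosphate genes 7 could be compared, with 3 higher and 1 lower; Rpe was another of those higher (0.95, -0.13 to 2.23), and G6pdx lay at -0.21 (-1.15 to 0.74). Among 10 genes of glucose sensing and upstream control, 2 of the 8 compared were higher and 1 lower: Txnip, whose product restrains glucose uptake and whose transcription glucose raises, had 60.7 CPM in Cdk2-Y15S and 152.5 CPM in Cdk2-WT (-1.33, -1.72 to -0.95). Tigar, a phosphatase that lowers glycolytic flux, was higher, with 41.4 CPM in Cdk2-Y15S and 23.9 CPM in Cdk2-WT (0.78, 0.13 to 1.49), as was Mlxipl, a glucose-responsive transcription factor, from 16 and 7 UMIs (0.93, -0.38 to 2.51), and Mlxip lay at -0.37 (-1.08 to 0.34). Of 19 hypoxia factors and targets 2 of the 15 compared were higher and 2 lower, the lower ones being Ddit4 with 5 UMIs in Cdk2-Y15S against 21 in Cdk2-WT (-2.17, -4.04 to -0.83) and Epas1 with 6 against 16 (-1.55, -3.26 to -0.20). The higher ones were Ero1l, an oxidase of the endoplasmic reticulum, with 124 UMIs in Cdk2-Y15S against 70 in Cdk2-WT (0.61, 0.18 to 1.06), and Ndrg1 with 32 against 16 (0.77, -0.12 to 1.76). Of 7 testis-specific isozymes of later germ cells, 0 had enough UMIs.

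In Cdk2-Y15S Sertoli cells the other glycolytic enzymes leaned low, with 12 of 15 compared below 0 and a median of -0.25 against 0.07 for all genes, but 1 alone, Eno3, passed 1.5-fold (3.34 CPM in Cdk2-Y15S against 6.85 CPM in Cdk2-WT, -1.02, -1.63 to -0.47). Ddit4, a stress-induced inhibitor of mTORC1, had 40.6 CPM in Cdk2-Y15S and 71.2 CPM in Cdk2-WT (-0.81, -0.97 to -0.65), and Egln1, an oxygen-sensing prolyl hydroxylase, 31.95 and 19.6 CPM (0.71, 0.48 to 0.94). The other glycolytic enzymes also leaned low in Cdk2-Y15S stromal cells, with 11 of 15 below 0 and a median of -0.21 against 0.04 for all genes. In Cdk2-Y15S myoid cells 7 of 12 were below 0, with a median of -0.23 against 0.01 for all genes. In stromal cells Epas1, a hypoxia-inducible factor, had 63 UMIs in Cdk2-Y15S and 8 in Cdk2-WT (2.56, 1.57 to 3.91). Pdk1 had 14.5 CPM in Cdk2-Y15S, 11.9 CPM in Cdk2-HET and 7.73 CPM in Cdk2-WT stromal cells (0.90 and 0.61). Aldoa had 355.5 CPM in Cdk2-Y15S, 350 CPM in Cdk2-HET and 278 CPM in Cdk2-WT stromal cells (0.35 and 0.33).

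Cells in cycle, with at least 3 UMIs of Mki67, Top2a, Cdk1 and Ccnb1, had slightly less Ldhb than cells with 0. In Sertoli cells 1 of 9 members tested was higher and 2 lower, where 18.7% of all genes were higher and 17.1% lower. Ldhb had 400 CPM in cycling and 482 CPM in non-cycling Cdk2-Y15S Sertoli cells, 491 and 595 CPM in those of Cdk2-HET, and 431 and 522 CPM in those of Cdk2-WT, a log2 fold of -0.30 (SE 0.04, edgeR adjusted p = 1.38e-07). It was lower in cycling cells in 3 of 3 libraries. In stromal cells, where 18.8% of all genes were higher and 15.8% lower and 1 of 9 members was higher and 2 lower, the fold was -0.32 (SE 0.08, edgeR adjusted p = 0.00414). Ldhb had 155 CPM in cycling and 211 CPM in non-cycling Cdk2-Y15S stromal cells, 189 and 238 CPM in those of Cdk2-HET, and 134 and 138 CPM in those of Cdk2-WT, where the intervals overlap. Cycling cells were deeper, at a median of 7796 to 8129 UMIs against 5754 to 5869 in non-cycling Sertoli cells. With cells thinned to 2000 UMIs the Ldhb fold was -0.28 in Sertoli cells (edgeR adjusted p = 4.29e-06) and -0.37 in stromal cells (edgeR adjusted p = 0.0109). Thinned, the Ldha fold was not called (-0.10 in Sertoli cells, edgeR adjusted p = 0.354; -0.15 in stromal cells, edgeR adjusted p = 0.291), nor was the Sertoli excess of Slc16a1 (0.53, edgeR adjusted p = 0.1997).

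Over the 11 sums of a class in a library, the genes most like each member were found by Pearson's r of log2(CPM + 10) among 11621 genes, as a description. The closest to Pfkp were Pgap1 and Zfp318 (both 0.997) and Gngt2 (0.996), those to Slc2a3 were Zc3hav1l (0.981), Socs5 (0.975) and Ccl25 (0.973), and those to Ldhb were Prkra (0.977), Ubl3 (0.967) and Sh3rf1 (0.961). Among the members Pfkp and Slc2a3 were most alike (0.957), and Pgk1 and Ldha next (0.893). The 11 sums share libraries and fall into 4 classes, and library totals enter every value.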

How the data were processed

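Single-cell 3' RNA was read from neonatal testes of 3 genotypes, 1 library each. The tools listed, per the submitters' processing notes, are Seurat and Cell Ranger 2.1.0, with mm10 as build; what each did, and the annotation and strand setting, the sources used here do not give. The values deposited by the authors are counts, as a matrix of whole UMIs of 27998 genes in 14422 cells, and the authors' germ cell table holds counts of 10451 genes in 141 cells, 0 of which differed from the matrix. The sources used here do not give how the authors chose and clustered these cells.

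The germ cells were used as deposited. Germ cells picked by marker UMIs were held to no limit on genes, mitochondrial share or doublets. Their median mitochondrial share was 9.53% in Cdk2-Y15S, 9.28% in Cdk2-HET and 10.8% in Cdk2-WT. Sertoli, stromal and myoid cells were kept at 500 genes or more and at most 10% mitochondrial UMIs. Scrublet (scanpy 1.11.5, expected rate 6%) marked 53 cells of Cdk2-Y15S, 83 of Cdk2-HET and 85 of Cdk2-WT (1.25%, 1.72% and 1.76%) as doublets. These were left out of the Sertoli, stromal and myoid cells. The gates left 416, 419 and 464 cells in no class. UMIs were summed per library and class, from 1213081 in Cdk2-WT germ cells to 15337059 in Cdk2-WT Sertoli cells. A prior of 0.5 UMI was added to both sums of a log2 ratio, with exact conditional binomial intervals; cell shares have Clopper-Pearson intervals; 3 UMIs are taken as the limit that a count of 0 allows. Classes were tested with edgeR 4.0.16 (R 4.3.3, TMM, filterByExpr, glmQLFit) in 1 fit with library as a block, since classes of a library share its suspension and run. On simulated data with 200 genes changed 2-fold, the fit recovered 38.5% in germ over Sertoli and 41.5% in germ over stromal cells. It recovered 78% in Sertoli over stromal and 71% in myoid over stromal cells. Apart from the changed genes, the simulated classes shared the same average profile, with a fixed spread and no difference between libraries. These rates need not hold for the members. A member not called in a germ comparison may still differ. No value was dropped or imputed.

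Gene positions are from GENCODE M21 and promoters from RefSeq. Members and gene lists were chosen with earlier results of these data known. All members were named. From each list the 2 highest and 2 lowest genotype ratios could be named; those for the authors' germ cells are all given, those for the other comparisons in part, picked after their values were seen, and other list genes given for class folds were chosen after their values were seen. Alternatives changed the normalization, filter, tool, block, gates, doublets, free RNA (10% of the average profile subtracted), cell limits and libraries. Library totals as scale, the germ sums without cluster C, the stromal and myoid cells with 0 Sertoli gate UMIs and the alternatives of the germ cells picked by markers were chosen after seeing the data.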

Additional observations from a re-analysis of the deposited data

Results flagged for a closer look

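Ldhb differed in sign between stromal and germ cells. In Cdk2-Y15S over Cdk2-WT its log2 ratio was 0.60 in stromal cells and -1.64 in the authors' germ cells, 2.24 apart; in germ cells picked by markers outside the authors' set Ldhb had 70.1 CPM in Cdk2-Y15S and 73.5 CPM in Cdk2-WT. In Cdk2-HET over Cdk2-WT it was 0.76 in stromal cells and -0.45 in germ cells picked by marker UMIs, 1.21 apart, and the germ value turned to 0.39 within the limits on genes and mitochondrial share. Hk2 differed in sign between Sertoli and myoid cells: in Cdk2-Y15S over Cdk2-WT it was 0.26 in Sertoli cells and -0.97 in myoid cells, 1.23 apart. In each case the counting intervals of the pair lie on opposite sides of 0. With 1 library per genotype the difference itself was not tested.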

How the results depend on the processing

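Of the members' class folds under the alternatives, 585 kept direction and side of the threshold, 42 lost a call, 7 gained one and 0 turned; of the genotype and cluster ratios 545 stayed within the counting interval, 24 left it and 2 that had passed 1.5-fold turned; ratios under 1.5-fold, such as that of Ldhb in Cdk2-HET germ cells (0.39 within the cell limits), also changed sign and are not in those 2. Pfkp in Cdk2-Y15S over Cdk2-WT germ cells turned to 1.48 over clusters B and C alone at equal weight, a setting that leaves 14 Cdk2-Y15S and 33 Cdk2-WT cells, and Slc16a1 in cluster D over B turned to 0.65 within the cell limits; the cause was not tested. With those weights 1949 genes instead of 3198 passed 1.5-fold, and within the cell limits 1394 instead of 2209 in cluster B over A and 801 instead of 2073 in D over B, from fewer cells. With library totals in place of TMM the median fold of all genes moved by 0.44 in germ over Sertoli, 0.56 in germ over stromal and 0.12 in Sertoli over stromal cells. Higher and lower calls were then 5976 and 3301 instead of 4431 and 4743, and 6331 and 3532 instead of 4517 and 5166, in the germ comparisons; no called member turned.

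Classes of a library come from 1 suspension, so the main fits hold a replicate block. Without the block, calls numbered 9151 instead of 9174 in germ over Sertoli, 9630 instead of 9683 in germ over stromal, 8834 instead of 9283 in Sertoli over stromal and 2638 instead of 3060 in myoid over stromal cells. In cycling over non-cycling cells they numbered 997 instead of 4001 in Sertoli and 2489 instead of 3835 in stromal cells, where the Ldha and Ldhb calls were also lost. DESeq2 gave 1527 and 1821 calls there, and cells thinned to 2000 UMIs 2016 and 2018. Leaving out each library gave 2650 to 3598 and 2880 to 3684 calls there, 1205 (without Cdk2-HET) to 3940 in myoid over stromal, 6838 to 9779 in Sertoli over stromal, 7980 to 8389 in germ over Sertoli and 8614 to 8754 in germ over stromal cells. The number of germ cells limits what can be compared: Pgk1 and Slc16a3 had too few UMIs to compare genotypes.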

Other observations

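In stromal cells Adm, the hypoxia-responsive gene of adrenomedullin, had 6 UMIs in Cdk2-Y15S, 5 in Cdk2-HET and 18 in Cdk2-WT, log2 ratios of -1.85 (-3.55 to -0.53) and -2.05 (-3.93 to -0.66) to Cdk2-WT, while Ddit4 had 61, 55 and 24 UMIs (0.99 and 0.88). In myoid cells Pdk2, a pyruvate dehydrogenase kinase, had 10.4 CPM in Cdk2-Y15S, 11.1 CPM in Cdk2-HET and 5.39 CPM in Cdk2-WT (0.94 and 1.02), and Gapdh had 97.1 CPM in Cdk2-Y15S and 138 CPM in Cdk2-WT (-0.51, -0.71 to -0.32). These describe single libraries.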
